A study of Mus musculus with 9 samples.

Results

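The transcripts of 10 genes that write, maintain, oxidise or protect DNA methylation were followed in 9 RNA-seq libraries of mouse metaphase II (MII) oocytes, the ovulated eggs arrested in the second meiotic division. The members were Dnmt1, Dnmt3a, Dnmt3b, Dnmt3l, Uhrf1, Dppa3, Tet3, Zfp57, Trim28 and Kdm1b, taken by gene name from the deposited count tables. All 10 were found among the 30153 genes listed, 1 row each, and all 10 passed the low-count filter in every comparison. They were chosen by function and with earlier results of these data known, so their levels are given as a description and each test is adjusted over all genes tested.

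Every donor was a 4-week-old female of mixed genetic background with the genotype Sycp3CreERT2/+; Rosa26nT-nG/+, so the groups share both alleles, and eggs were assigned to them by reporter fluorescence. The Cre is tamoxifen-inducible and is driven by Sycp3, a gene of the meiotic chromosome axis. The Rosa26 allele makes nuclear red fluorescent protein (tdTomato) until Cre acts and nuclear GFP afterwards, and the time of Cre induction is not given in the sources used here. Females had received 5 IU PMSG and, 48 h later, 5 IU hCG, and eggs were freed of cumulus cells 13 h after hCG and picked by hand. GFP High pools held 15, 15 and 16 eggs, GFP Low pools 49, 52 and 57, and RFP pools 88, 87 and 100, with 3 libraries per group. The design text does not tie these numbers to library numbers, and the labels do not say which animals gave which pool, so p-values measure the spread between pools, and less mRNA per egg cannot be told apart from fewer eggs that carry an mRNA.

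Methylation of cytosine in CpG dinucleotides is set in the growing oocyte by Dnmt3a together with Dnmt3l, a relative without catalytic activity that stimulates it. Dnmt1 and its recruiting factor Uhrf1 copy existing methylation at replication. The egg also stores proteins that act after fertilisation: Dppa3 (Stella) shields the maternal genome from Tet3, the dioxygenase that oxidises 5-methylcytosine in the zygote, and Zfp57 with its partner Trim28 keeps methylation at imprinted regions.

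Library totals ran from 19381677 to 27746256 counts. The eGFP counts were 869 to 1081 in GFP High, 282 to 662 in GFP Low and 0 to 16 in RFP. tdTomato was counted 0 to 2, 16 to 35 and 46 to 94 times in the same order. All 12 oocyte markers examined were present in every library, at a summed level of 8037 to 9223 CPM. Of 16 cumulus and granulosa markers, 3 to 12 were at 0 in GFP High, 1 to 5 in GFP Low and 1 to 7 in RFP. Their summed level of 285.0 to 418.8, 312.7 to 330.7 and 296.3 to 400.0 CPM in that order came mostly from Serpine2 (159.8 to 207.9 CPM) and Nr5a2. The cumulus expansion genes Ptx3 and Tnfaip6 were highest in GFP High 1, GFP Low 1 and RFP 2, at 5.80 to 9.70 and 6.65 to 10.9 CPM. Other listed markers did not all follow them. Vim was at 10.2, 8.40 and 12.5 CPM in these libraries and at 10.5 CPM in RFP 1. Cyp11a1 and Star were highest in RFP 1, at 3.21 and 1.92 CPM. Summed over Ptx3, Tnfaip6, Inha, Inhba, Fst and Gja1, only GFP High 1, GFP Low 1 and RFP 2 exceeded 20 CPM. RFP 1 came next at 9.32 CPM. Ptx3 and Tnfaip6 were both at 0 in GFP High 2 and RFP 3. GFP High 2 also had the fewest genes with 5 counts or more, 13773 against 15969 to 17663 in the other libraries. The 2 of 6 blood cell markers matched reached 1.04 CPM at most in any library, and the 5 of 6 oviduct markers matched summed to 3.30 to 12.3 CPM and were led by Krt8.

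The start regions of the members differ in the dinucleotide that the encoded enzymes act on. RefSeq windows on GRCm38.p6, which run from 250 bases before to 50 bases after an annotated start, were matched for 9 of the 10 members, with Dppa3 unmatched, and gave 18 windows. All 3 windows of Dnmt3l held 6 CpGs or fewer and all 3 of Zfp57 held 9 or fewer, near the median of 7 over 32851 windows of the same length. Dnmt3a reached 47 and Dnmt3b had 30. Dnmt1 has both kinds, a far upstream start with 2 CpGs and an internal start with 33, and 23.3% of all windows hold 2 or fewer while 92.3% hold 33 or fewer. The pair is printed to show the contrast within a gene, and the Dnmt3l and Zfp57 windows because these genes lack a CpG-dense start. The Zfp57 window printed is the most downstream of its 3 and holds the fewest CpGs, 4. Each is 5′ to 3′ on the gene's strand with every CpG in capitals. The motif searched was CG, which reads the same on both strands.
Dnmt1, upstream start, chr9:20959839-20960138, minus strand: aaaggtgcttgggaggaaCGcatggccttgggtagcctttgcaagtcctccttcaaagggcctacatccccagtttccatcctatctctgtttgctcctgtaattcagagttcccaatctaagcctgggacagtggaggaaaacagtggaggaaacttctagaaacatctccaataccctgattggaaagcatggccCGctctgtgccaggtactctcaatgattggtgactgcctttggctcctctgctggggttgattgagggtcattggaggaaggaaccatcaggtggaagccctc
Dnmt1, internal start, chr9:20952574-20952873, minus strand: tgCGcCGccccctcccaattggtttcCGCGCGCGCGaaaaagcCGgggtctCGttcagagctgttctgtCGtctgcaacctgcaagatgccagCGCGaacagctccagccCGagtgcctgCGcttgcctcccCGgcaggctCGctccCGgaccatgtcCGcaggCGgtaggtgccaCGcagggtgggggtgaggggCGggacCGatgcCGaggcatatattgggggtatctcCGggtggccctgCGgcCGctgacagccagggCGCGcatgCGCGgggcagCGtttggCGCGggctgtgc
Dnmt3l, first start, chr10:78042037-78042336, plus strand, within the annotated span of the opposite-strand gene Aire: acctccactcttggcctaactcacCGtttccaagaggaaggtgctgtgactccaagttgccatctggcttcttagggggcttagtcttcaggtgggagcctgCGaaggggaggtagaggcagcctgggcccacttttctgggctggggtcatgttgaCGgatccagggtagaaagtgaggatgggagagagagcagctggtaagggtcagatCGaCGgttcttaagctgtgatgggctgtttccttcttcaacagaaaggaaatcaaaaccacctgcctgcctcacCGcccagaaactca
Zfp57, chr17:37003416-37003715, plus strand: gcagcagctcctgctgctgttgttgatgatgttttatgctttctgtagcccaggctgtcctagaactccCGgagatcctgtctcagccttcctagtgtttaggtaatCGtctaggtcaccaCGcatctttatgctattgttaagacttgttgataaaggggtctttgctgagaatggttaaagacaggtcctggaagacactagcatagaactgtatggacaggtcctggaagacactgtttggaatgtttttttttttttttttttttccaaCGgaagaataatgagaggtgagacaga
The deposited counts are per gene, so they do not show which start was used, and nothing about methylation of these windows was measured.

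On the per-length scale of the authors' FPKM, Dppa3, Zfp57, Dnmt1, Uhrf1 and Tet3 were each above all of Kdm1b, Dnmt3l, Trim28, Dnmt3a and Dnmt3b in every library. Dppa3 ranked 10 among all 30153 genes with a mean of 2086 FPKM over the 9 libraries (SD 209.5). Zfp57 followed at 677 (SD 47.5, rank 39), then Dnmt1 at 478 (SD 26.5, rank 61), Uhrf1 at 225 (SD 13.0, rank 178) and Tet3 at 96.0 (SD 8.10, rank 523). Kdm1b had a mean of 36.1 FPKM (SD 2.64), Dnmt3l 26.7 (SD 4.53), Trim28 23.2 (SD 1.80), Dnmt3a 12.9 (SD 1.13) and Dnmt3b 4.75 (SD 1.28). Neighbours in this order overlapped between libraries for Kdm1b and Dnmt3l and for Dnmt3l and Trim28. All other neighbouring members were separated in all 9 libraries. FPKM uses 1 length per gene and so describes no single isoform where a gene has several starts, as Dnmt1 does. Together the members took 1.08% to 1.17% of all counts in a library.

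**Figure D1:**
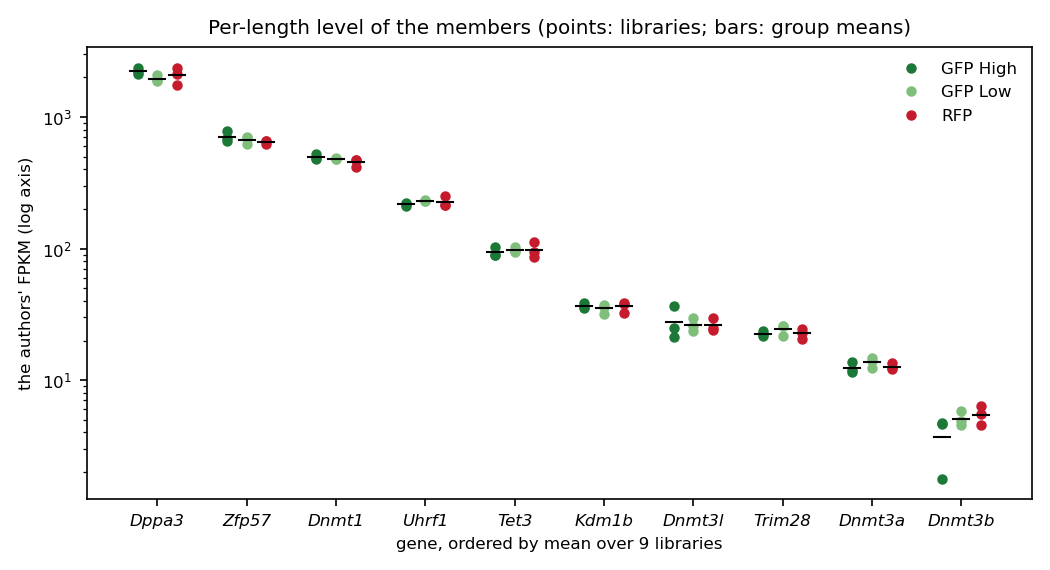
Level of the 10 members on the authors' FPKM scale, log axis, with the genes ordered by their mean over 9 libraries; points are libraries coloured by group and bars are group means. The members spread from 4.75 FPKM for Dnmt3b to 2086 FPKM for Dppa3, while the 3 groups of each gene lie close together.

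Comparing the groups, none of the 10 members passed an adjusted p of 0.05 in any of the 3 comparisons (edgeR quasi-likelihood test, Benjamini-Hochberg adjustment). At an unadjusted p under 0.05 the members numbered 0 in GFP High against RFP, 0 in GFP Low against RFP and 1, Dppa3, in GFP High against GFP Low. DESeq2 and limma-voom also called 0 members in each. Among all genes tested, the adjusted threshold was passed by 0.0135%, 0.0197% and 0.0% in that order, and the unadjusted one by 4.09%, 2.62% and 3.77%. The median log2 fold change of the members was -0.01, 0.01 and -0.02, beside -0.0056, -0.0041 and -0.0048 over all genes tested. The 95% intervals of the log2 fold change lay within 0.5 of zero for 9, 10 and 9 of the members, the exception being Dnmt3b in both comparisons of GFP High. The comparisons share libraries in pairs, so they are not independent of each other.

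**Figure D2:**
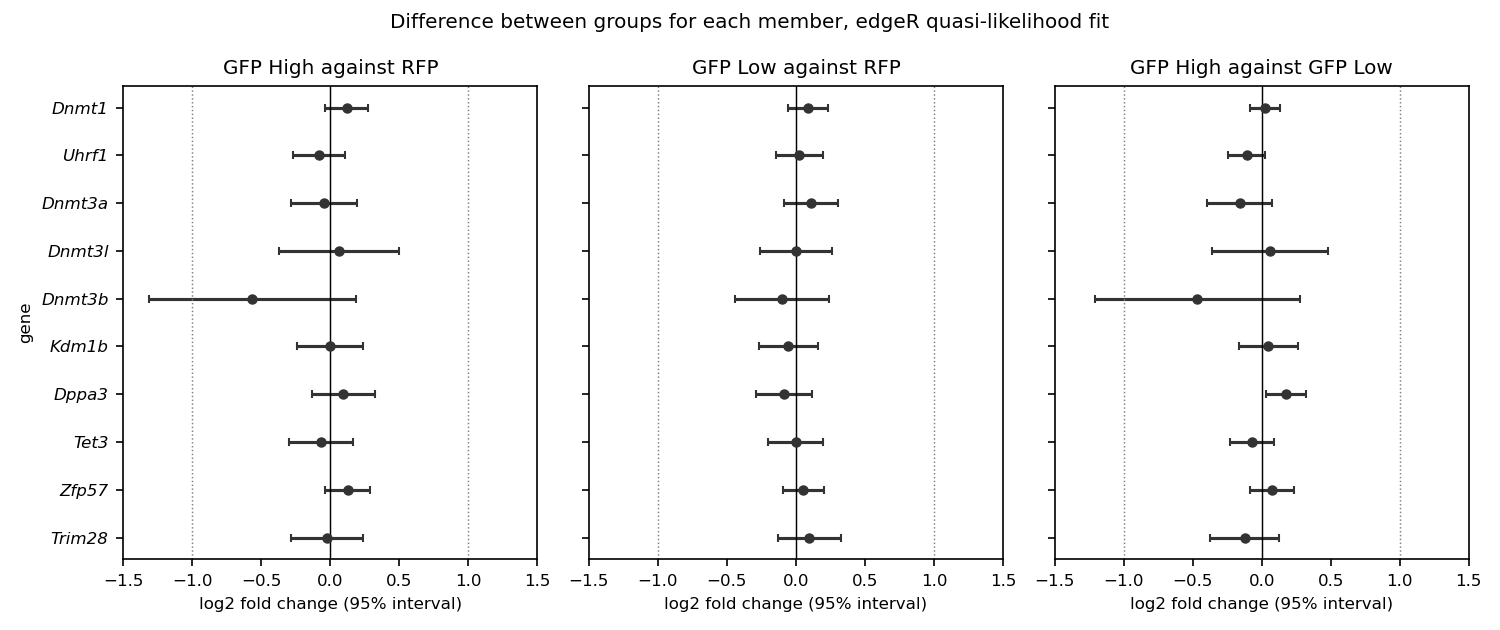
Fitted log2 fold change of each member (points) with its 95% interval (bars) in the 3 comparisons, where positive values are higher in the first group named and dotted lines mark 1 and -1. All intervals include 0 except that of Dppa3 in GFP High against GFP Low (0.03 to 0.33), and that of Dnmt3b extends past -1 in both GFP High comparisons.

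Dnmt1 and Uhrf1 carry out maintenance methylation. Dnmt1 (ENSMUSG00000004099, GRCm38 chromosome 9, 20907209 to 20959888, minus strand, protein coding) was counted 69623 times or more in every library. Its TMM-scaled CPM values were 3618, 3833 and 3567 in GFP High 1, 2 and 3, 3589, 3588 and 3647 in GFP Low 1, 2 and 3, and 3126, 3535 and 3533 in RFP 1, 2 and 3. Every GFP-positive library lay above every RFP library, by a narrow margin over RFP 2 and RFP 3 and a wide one over RFP 1. The log2 fold change against RFP was 0.12 in GFP High (SE 0.07, interval -0.04 to 0.27, edgeR adjusted p = 0.997) and 0.09 in GFP Low (SE 0.07, interval -0.06 to 0.23, edgeR adjusted p = 1.000). Without RFP 1 these values were 0.05 and 0.03. Dnmt1 was the only member whose libraries did not overlap in these comparisons, 1 of 10 in each, where 11.9% and 7.68% of all genes tested did not overlap. GFP High and GFP Low differed in Dnmt1 by 0.03 on the log2 scale (SE 0.05).

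Uhrf1 (ENSMUSG00000001228, chromosome 17, 56303321 to 56323486, plus strand), which recognises hemimethylated DNA and recruits Dnmt1, had 938, 893 and 945 CPM in GFP High 1, 2 and 3. Its values were 1013, 990 and 993 CPM in GFP Low 1, 2 and 3, and 924, 930 and 1097 in RFP 1, 2 and 3. All GFP High libraries lay below all GFP Low libraries, whereas the RFP libraries spanned both, with RFP 3 the highest of the 9. The log2 fold change of GFP High against GFP Low was -0.11 (SE 0.06, interval -0.24 to 0.03, edgeR adjusted p = 0.998). Against RFP it was -0.08 in GFP High (SE 0.08) and 0.02 in GFP Low (SE 0.08). A processed pseudogene, Gm5648, matches Uhrf1 at 98.3% identity over 1590 bases and had at most 63 counts in a library.

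**Figure D3:**
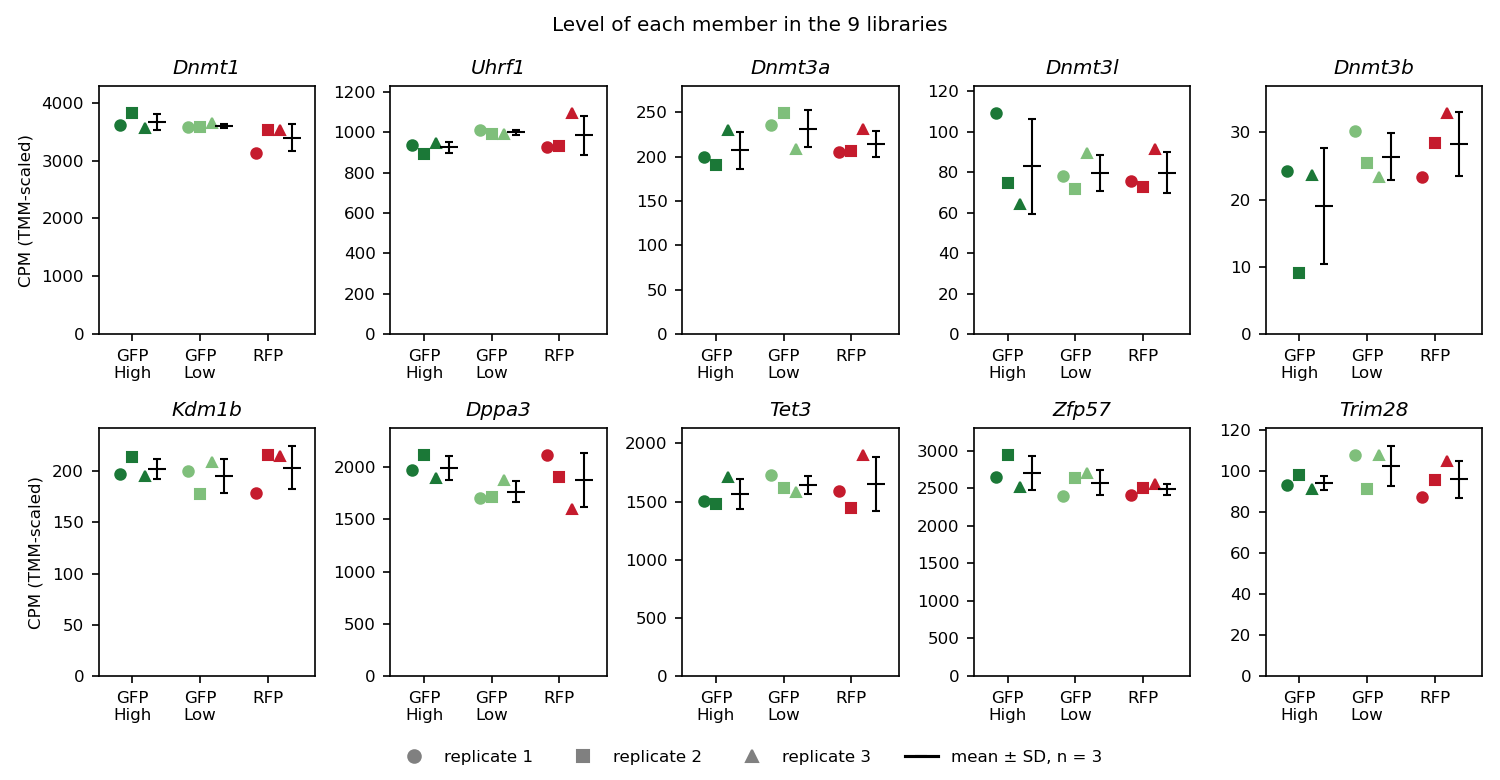
TMM-scaled CPM of each member in the 9 libraries, 1 panel per gene with its own axis from 0; symbols are replicates and black bars are mean ± SD (n = 3). Points of the 3 groups lie at similar heights in every panel, with Dnmt3b in GFP High 2 (9.11 CPM) and Dnmt3l in GFP High 1 (109.5 CPM) set apart from the rest.

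Dnmt3a, Dnmt3l, Dnmt3b and Kdm1b belong to de novo methylation. Dnmt3a (ENSMUSG00000020661, chromosome 12, 3806007 to 3914443, plus strand), the de novo methyltransferase of the oocyte, had 200, 191 and 230 CPM in GFP High 1, 2 and 3. The values were 236, 250 and 209 CPM in GFP Low 1, 2 and 3, and 205, 207 and 232 in RFP 1, 2 and 3. The groups overlapped throughout. The log2 fold change was -0.05 in GFP High against RFP (SE 0.11), 0.11 in GFP Low against RFP (SE 0.09) and -0.16 in GFP High against GFP Low (SE 0.11, interval -0.40 to 0.08, edgeR adjusted p = 0.998). The antisense gene Dnmt3aos, which overlaps it, had at most 23 counts.

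Dnmt3l (ENSMUSG00000000730, chromosome 10, 78041947 to 78063622, plus strand), the cofactor of Dnmt3a, was the member with the second largest spread. Its values were 109.5, 74.8 and 64.4 CPM in GFP High 1, 2 and 3, 78.0, 71.6 and 89.2 in GFP Low 1, 2 and 3, and 75.5, 72.4 and 91.3 in RFP 1, 2 and 3. GFP High held both the highest and the lowest library of the 9, and its coefficient of variation (CV) was 28.5% against 11.2% in GFP Low and 12.7% in RFP. Comparisons with GFP High were also more variable over all genes. The common biological CV fitted by edgeR was 0.475 with RFP and 0.487 with GFP Low, and 0.247 in GFP Low against RFP. GFP High pools held the fewest eggs, so group and pool size cannot be told apart. For Dnmt3l, counting error was at most 2.64% in any library. The log2 fold changes were 0.06 in GFP High against RFP (SE 0.19, interval -0.37 to 0.49), -0.00027 in GFP Low against RFP (SE 0.12) and 0.06 in GFP High against GFP Low (SE 0.19). GFP High 1, the highest, is among the libraries with the most Ptx3 and Tnfaip6. So are GFP Low 1 and RFP 2, at 78.0 and 72.4 CPM of Dnmt3l, and the part of cumulus RNA in these values was not tested. Without these 3 libraries, an option chosen after seeing the data, the GFP High values turned to -0.26 against RFP and -0.21 against GFP Low. Leaving out GFP High 1 alone already gave -0.20 against RFP. Dnmt3l overlaps Aire on the opposite strand, which had 207 to 381 counts, and the strand setting of the counting is not given in the sources used here.

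Dnmt3b (ENSMUSG00000027478, chromosome 2, 153649450 to 153687730, plus strand), the de novo enzyme best known from the early embryo, was the least abundant and most variable member. In GFP High 1, 2 and 3 its counts were 666, 224 and 526, or 24.3, 9.11 and 23.6 CPM. GFP Low 1, 2 and 3 had 30.2, 25.4 and 23.4 CPM, and RFP 1, 2 and 3 had 23.4, 28.4 and 32.9 CPM. GFP High 2 alone fell far under the others, while the remaining 8 libraries lay between 23.4 and 32.9 CPM. The log2 fold change of GFP High was -0.57 against RFP (SE 0.34, interval -1.32 to 0.19, edgeR adjusted p = 0.997) and -0.47 against GFP Low (SE 0.33, interval -1.21 to 0.27, edgeR adjusted p = 0.998). Without GFP High 2 these became -0.24 and -0.14. GFP Low against RFP gave -0.10 (SE 0.16). GFP High 2 is also the library with the fewest genes detected and with 12 of 16 cumulus markers at 0, and the part of either in this value was not tested.

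Kdm1b (ENSMUSG00000038080, chromosome 13, 47043499 to 47085279, plus strand) removes methyl groups from lysine 4 of histone H3 and is needed for methylation of many maternal imprints. Its CPM ran from 195 to 213 in GFP High, 177 to 209 in GFP Low and 179 to 216 in RFP. The log2 fold changes were -0.0036, -0.05 and 0.05 in the 3 comparisons (SE 0.11, 0.10 and 0.10 in the same order), and the groups overlapped in all 3. Kdm1b lies across Dek and Tpmt on the opposite strand and shares 505 identical bases with a transcript of Dek, which had 10622 to 13953 counts. How the deposited counting treated reads of the shared stretch is not given, and the level of Kdm1b is uncertain to that extent.

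Dppa3 and Tet3 act on the methylation of the zygote. Dppa3 (ENSMUSG00000046323, chromosome 6, 122626410 to 122630272, plus strand) had 1971, 2122 and 1897 CPM in GFP High 1, 2 and 3. Its values were 1702, 1713 and 1880 CPM in GFP Low 1, 2 and 3, and 2116, 1908 and 1602 in RFP 1, 2 and 3. All GFP High libraries lay above all GFP Low libraries, although GFP High 3 and GFP Low 3 were nearly equal, and RFP held a value close to the highest and the lowest of all. In GFP High against GFP Low the log2 fold change was 0.18 (SE 0.07, interval 0.03 to 0.33, unadjusted p = 0.0201, edgeR adjusted p = 0.998). The authors' deposited table gives 0.19 with an adjusted p of 0.676 for the same pair. Dppa3 and Uhrf1 were the 2 of 10 members without overlap in this comparison, where 11.5% of all genes tested did not overlap. Against RFP the log2 fold change was 0.10 in GFP High (SE 0.10) and -0.09 in GFP Low (SE 0.09), and without RFP 3 the first became -0.01. The pseudogene Dppa3-ps matches Dppa3 at 98.2% identity over 451 bases and had at most 188 counts, against 33023 or more for Dppa3, and Gm15620, which matches over 116 bases, was not analysed here.

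Tet3 (ENSMUSG00000034832, chromosome 6, 83362373 to 83459084, minus strand) is the main 5-methylcytosine dioxygenase of the egg. Its values were 1502, 1480 and 1715 CPM in GFP High 1, 2 and 3, 1729, 1620 and 1584 in GFP Low 1, 2 and 3, and 1595, 1449 and 1904 in RFP 1, 2 and 3. The lowest and the highest library were both RFP, and the groups overlapped in every comparison. The log2 fold changes were -0.07 in GFP High against RFP (SE 0.10), -0.0027 in GFP Low against RFP (SE 0.09) and -0.07 in GFP High against GFP Low (SE 0.07). RFP 3 was the library with the most Tet3 and Uhrf1 and the least Dppa3.

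Zfp57 and Trim28 maintain methylation at imprinted regions. Zfp57 (ENSMUSG00000036036, chromosome 17, 37001163 to 37010635, plus strand) is the zinc finger protein that binds the methylated motif of these regions. Its values were 2646, 2947 and 2515 CPM in GFP High 1, 2 and 3, 2390, 2638 and 2697 in GFP Low 1, 2 and 3, and 2403, 2498 and 2550 in RFP 1, 2 and 3. GFP High 2 was the highest library and the groups overlapped. GFP High against RFP gave a log2 fold change of 0.13 (SE 0.07, interval -0.04 to 0.29, edgeR adjusted p = 0.997), which became 0.05 without GFP High 2. GFP Low against RFP gave 0.05 (SE 0.07) and GFP High against GFP Low 0.07 (SE 0.07).

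Trim28 (ENSMUSG00000005566, chromosome 7, 12999114 to 13031035, plus strand) is the corepressor that Zfp57 recruits. Its CPM ran from 91.1 to 97.8 in GFP High, 91.2 to 107.9 in GFP Low and 87.0 to 104.8 in RFP. The log2 fold changes were -0.02, 0.10 and -0.12 in the 3 comparisons (SE 0.12, 0.11 and 0.11), and the groups overlapped. Trim28 overlaps Zbtb45 on the opposite strand, which had 129 to 476 counts.

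The members differed in how steady they were between replicates. The CV within groups, pooled over the 3 groups, was 4.61% for Dnmt1, 6.06% for Uhrf1, 6.22% for Zfp57, 7.92% for Trim28 and 8.18% for Kdm1b. It was 8.69% for Dnmt3a, 9.21% for Dppa3 and 9.80% for Tet3. Genes whose mean CPM lay within a factor of 2 of the member had median values of 6.87% around Dnmt1, 6.89% around Uhrf1, 7.04% around Zfp57 and Tet3, and 7.23% around Dppa3. They were 8.68% around Dnmt3a, 8.83% around Kdm1b and 10.6% around Trim28. Dnmt3l at 19.1% and Dnmt3b at 28.9% were above the medians of genes at their own level, 11.2% and 16.7%, and so, by less, were Tet3 and Dppa3. Dnmt3a was level with its median, and the other 5 members were below theirs. For the members above their medians, the pooled value hides unequal groups of 3 libraries each. GFP High had the largest CV of Dnmt3b (45.2%) and of Dnmt3l (28.5%). For this pair GFP Low gave 13.3% and 11.2%, while RFP gave 16.9% and 12.7%. RFP had the largest CV of Dppa3 (13.8%) and of Tet3 (14.1%). For these genes GFP High gave 5.72% and 8.28%, while GFP Low gave 5.64% and 4.58%.

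Ratios between members within a library do not depend on the scaling between libraries. In FPKM they do depend on the 1 length used per gene. Dppa3 exceeded Uhrf1 in every library, by 9.23-fold on average and by 6.97-fold to 11.3-fold in single libraries, in FPKM. The log2 ratio was 3.33, 3.50 and 3.26 in GFP High 1, 2 and 3, 3.00, 3.05 and 3.18 in GFP Low 1, 2 and 3, and 3.45, 3.29 and 2.80 in RFP 1, 2 and 3. GFP High lay above GFP Low without overlap. Dppa3 was higher and Uhrf1 lower without overlap between these groups, so the separation of their ratio follows from that and adds no support. RFP ran from below every GFP Low library to above GFP High 1 and GFP High 3, with GFP High 2 the highest of all. In FPKM, Dnmt3l exceeded Dnmt3a by 2.05-fold on average, with log2 ratios from 0.64 in GFP High 3 to 1.61 in GFP High 1 and the other groups between. The order was reversed in CPM, which is not divided by length, at means of 80.7 for Dnmt3l and 217.7 for Dnmt3a. Their deposited lengths are 2988 and 16642 bases. Dppa3 stayed above Uhrf1 in mean CPM, at 1879 against 969. Trim28 stood at 0.034 of the Zfp57 level on average, with log2 ratios of -5.05 to -4.92 in GFP High, -4.99 to -4.60 in GFP Low and -4.92 to -4.74 in RFP. Dnmt3a exceeded Dnmt3b by 2.16-fold to 6.43-fold, and GFP High 2 gave the highest ratio. These are descriptions of 9 libraries and were not tested.

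**Figure D4:**
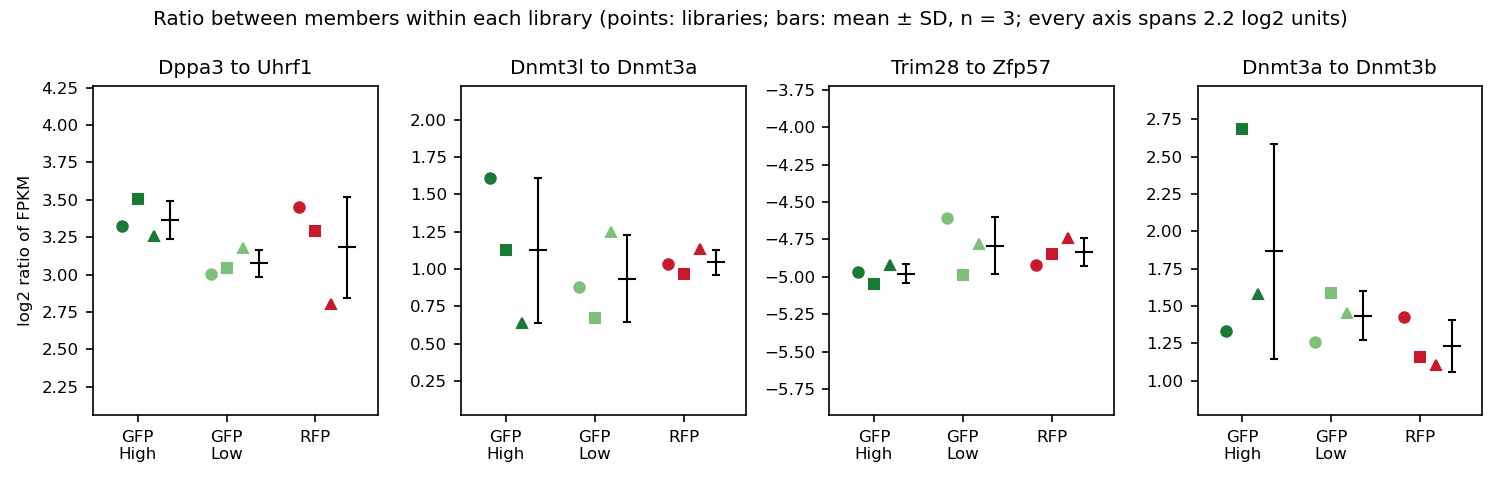
log2 ratio of FPKM between 4 pairs of members in each library, with symbols for replicates, bars for mean ± SD (n = 3) and axes of equal span. Dppa3 to Uhrf1 is above 2.8 in all 9 libraries, and the spread within GFP High is widest for Dnmt3l to Dnmt3a and for Dnmt3a to Dnmt3b.

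The other genes of these pathways were examined as 6 lists of 78 genes in all, of which 72, 73 and 73 were tested in GFP High against RFP, GFP Low against RFP and GFP High against GFP Low. None passed an adjusted p of 0.05 in either direction (edgeR quasi-likelihood test), and 2, 0 and 1 had an unadjusted p under 0.05. DESeq2 and limma-voom also called 0. Their median log2 fold change was -0.07, -0.0092 and -0.04. The groups did not overlap for 1 gene higher and 5 lower in GFP High against RFP, where 4.88% and 6.98% of all genes tested did so, for 1 higher in GFP Low against RFP (3.59%), and for 1 higher and 7 lower in GFP High against GFP Low (4.71% and 6.84%).

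Among the 15 genes listed under de novo methylation and its targeting, Nsd1 was the most abundant per length (33.2 FPKM). Nsd1 methylates lysine 36 of histone H3. Its relative Nsd2 had the smallest p of all 78 genes in both comparisons of GFP High. The mean CPM of Nsd2 was 109.6 ± 5.84 for GFP High, 130.1 ± 9.63 for GFP Low and 137.0 ± 11.7 for RFP (SD, n = 3). The fitted log2 fold change was -0.32 against RFP (SE 0.11, edgeR adjusted p = 0.997) and -0.25 against GFP Low (SE 0.11, edgeR adjusted p = 0.998). The smallest p of this list between GFP Low and RFP was that of Setd2, which trimethylates the same residue, at -0.15 on the log2 scale (SE 0.08). The median log2 fold change of the list was -0.08, -0.06 and -0.04 in the 3 comparisons.

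The 12 genes around maintenance methylation were led by Padi6, a component of the egg's cytoplasmic lattices, at 787 FPKM. Hdac1, a histone deacetylase, had the smallest p of this list in both GFP High comparisons, with a mean CPM of 12.8 ± 2.35 for GFP High, 8.91 ± 1.44 for GFP Low and 8.28 ± 0.65 for RFP (SD, n = 3). The fitted log2 fold change was 0.63 against RFP (SE 0.27, edgeR adjusted p = 0.997) and 0.52 against GFP Low (SE 0.28, edgeR adjusted p = 0.998). Between GFP Low and RFP it was Cdca7, an activator of the remodeller Hells, at -0.46 (SE 0.26).

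Of the 15 genes for oxidation and repair of methylcytosine, 12 to 13 were tested and the DNA ligase Lig3 was highest at 13.3 FPKM. Tet1 and Tet2, the relatives of Tet3, had 0.33 and 0.89 FPKM, far under the 96.0 of Tet3. Parp1, which senses DNA breaks, had the smallest p of the list in both GFP High comparisons, with log2 fold changes of -0.35 against RFP (SE 0.22) and -0.43 against GFP Low (SE 0.21). In GFP Low against RFP it was Tet1 at -0.49 (SE 0.30). Of the 7 genes listed under readers of methylated DNA, a heading that does not give the role of every gene, 6 were tested. Mbd3 was highest at 60.4 FPKM. The smallest p in this list was that of Mbd1 in GFP High against RFP (-0.48, SE 0.35). It was that of Zbtb38 in GFP Low against RFP (0.44, SE 0.47) and in GFP High against GFP Low (-1.82, SE 1.30), a gene with a mean of 1.70 CPM.

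The 14 genes listed under protection of methylation at imprints and retroelements were led by Cbx1, at 131.3 FPKM. Cbx1 is a heterochromatin protein that binds methylated lysine 9 of histone H3. A list heading names a topic and not the role of every gene in it. The smallest p values belonged to Smchd1 in GFP High against RFP (-0.24, SE 0.13), the insulator protein gene Ctcf in GFP Low against RFP (-0.14, SE 0.08) and the nuclear exportin gene Xpo1 in GFP High against GFP Low (-0.20, SE 0.11). Of the 15 genes listed under methyl donor supply, 13 were tested and Mat2b, a subunit of methionine adenosyltransferase, was highest at 118.7 FPKM. Smallest p values were those of Mtrr (-0.68, SE 0.37), Tyms (0.30, SE 0.15) and Shmt1 (-0.84, SE 0.46) in the 3 comparisons in the same order. Each of these had an edgeR adjusted p of 0.9969 or more.

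The gene whose pattern over the 9 libraries was most like each member was sought among 7709 other genes with a mean of 10 CPM or more, by the root-mean-square difference of centred log2 CPM. The nearest were Mtmr9 for Dnmt1 (0.03), Dcaf7 for Uhrf1 (0.03), Gigyf2 for Dnmt3a (0.05), Ccdc115 for Dnmt3l (0.09) and Col6a5 for Dnmt3b (0.11). They were Fbxw16 for Kdm1b (0.05), Psma2 for Dppa3 (0.04), Pdzd2 for Tet3 (0.03), Oser1 for Zfp57 (0.04) and Pes1 for Trim28 (0.05). No member was the nearest of another. The closest pairs of members were Dnmt1 with Zfp57 at 0.06 and Uhrf1 with Tet3 at 0.07. Many other genes lay nearer than these partners, 22 to Dnmt1, 39 to Zfp57, 121 to Uhrf1 and 47 to Tet3. The distance to a gene without any change would be 0.07 for Dnmt1, 0.09 for Zfp57, 0.08 for Uhrf1 and 0.12 for Tet3. Small distances thus partly reflect small spread.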

How the data were processed

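Raw read counts per gene came from 3 tables deposited by the authors, each covering 2 groups and 6 libraries. Joining them on the gene identifier gave 30153 genes in 9 libraries, and 178 genes missing from a table were filled with 0. The submitters' processing notes name fastp, HISAT2 2.0.5, featureCounts 1.5.0-p3, DESeq2 1.20.0 and mm10, without roles. The deposited FPKM values served for levels between genes. The deposited normalised signal (counts over a size factor) entered no test. The deposited log2 fold change and p-value columns appear only in sentences that credit the authors. Poly-A capture misses mRNA without a tail.

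Pairs of groups were compared with edgeR 4.0.16 (filterByExpr, TMM, glmQLFit, glmQLFTest, defaults, no covariate) under R 4.3.3. Benjamini-Hochberg adjustment covered every gene tested, and calls needed a value under 0.05. Standard errors and 95% intervals came from the F statistic. The fit was also run on simulated data, with changes larger than any fitted here for a member. That run cannot show whether changes of the members' size would be called. CPM values were scaled by TMM over 9 libraries, and log2 CPM used a prior count of 2. Alternatives used DESeq2 1.42.0 and limma 3.58.1. Counting errors assume independent reads, though reads carry no molecular identifiers. Copies were sought with blastn 2.17.0+ at 95% identity over 100 bases or more. Coordinates matched GENCODE M21.

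Members, gene lists and markers were chosen with earlier results of these data known. Named by rule were all members, in each list the gene highest in FPKM and the gene with the smallest p in each comparison, the gene nearest in pattern to each member, and any list gene past the threshold. No pairing by replicate number is stated, so the main fit used none. Deviations of same-numbered libraries correlated at -0.106 to 0.120, which does not show whether these libraries shared donors.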

Additional observations from a re-analysis of the deposited data

How the results depend on the processing

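The number of members called stayed at 0 of 10 and that of the list genes at 0 under every alternative run, including each fit without 1 library. The number of all genes called moved. In GFP High against RFP, 2 genes became 16 without a low-count filter, 12 by DESeq2, 1 by limma-voom, 4 with the replicate block and 0 with libraries low in cumulus RNA (GFP High 1, GFP Low 1 and RFP 2 left out, chosen after seeing the data), and ran from 0 to 2 in fits without 1 library (0 when GFP High 1, RFP 2, GFP High 3 or RFP 3 was left out). In GFP Low against RFP, 3 became 34, 10 and 1 with the first 3 of these, and ran from 2 to 3. Between GFP High and GFP Low, 0 became 16 without the filter and 4 with DESeq2, and ran from 0 to 1 (1 without GFP High 3). edgeR's bias-adjusted deviances, also chosen afterwards, gave 2, 2 and 0. The cause was not tested.

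Signs of several values near 0 changed. Kdm1b in GFP High against RFP (-0.0036) became 0.0072 with DESeq2 size factors, 0.0077 with DESeq2, 0.0027 with limma-voom, 0.00035 with the replicate block and 0.055 with libraries low in cumulus RNA. Dnmt3l in GFP Low against RFP (-0.00027) became 0.0018, 0.0013, 0.00041 and 0.0011 with the first 4 of these. Tet3 in that comparison became 0.0058 with the replicate block. With libraries low in cumulus RNA, Dnmt3l in GFP High became -0.26 relative to RFP and -0.21 relative to GFP Low, and Uhrf1 became -0.023 in GFP Low against RFP.

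Across fits without 1 library, signs also changed for 15 of the 30 values. In GFP High against RFP the ranges were -0.138 to 0.0049 for Dnmt3a, -0.198 to 0.206 for Dnmt3l, -0.013 to 0.184 for Dppa3, -0.094 to 0.041 for Kdm1b, -0.157 to 0.039 for Tet3 and -0.094 to 0.040 for Trim28. In GFP Low against RFP they were -0.223 to 0.022 for Dnmt3b, -0.094 to 0.106 for Dnmt3l, -0.190 to 0.0076 for Dppa3, -0.140 to 0.0090 for Kdm1b, -0.087 to 0.111 for Tet3 and -0.022 to 0.106 for Uhrf1. Between GFP High and GFP Low they were -0.0086 to 0.044 for Dnmt1, -0.199 to 0.209 for Dnmt3l and -0.023 to 0.094 for Kdm1b. The replicate block changed no call among the members. Group means of the members, as a percent of the mean over libraries, moved by less than 1 SD with library totals or FPKM.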
